A study of Mus musculus with 20 samples.

Results

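The Hox genes encode homeodomain transcription factors that lie in 4 clusters, Hoxa to Hoxd, and the probes for them on a mouse lung array are described here. Members were all probes, other than controls, whose gene name in the spot tables was Hox followed by a, b, c or d and a number. This gave 49 probes for 38 genes, out of 27671 genes with a probe, and each gene was read from its probe of greatest mean lung signal. The Hoxa cluster had 11 genes, Hoxb 10, Hoxc 8 and Hoxd 9, and Hoxc11 was not analysed here.

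The lungs came from 20 time-mated female C57BL/6BomTac mice, 5 dams per group, which received Printex 90 carbon black, an industrial soot-like nanoparticle, or Milli Q water alone by instillation into the trachea. Every dam had 4 instillations, the first on gestational day 7, the next on days 10 and 15, and the last on day 18. The control group received the vehicle, the low group 2.75 µg per instillation (11 µg in total), the medium group 13.5 µg (54 µg) and the high group 67 µg (268 µg). All dams were killed after their litters were weaned, 26 to 27 days after the last instillation, and the controls shared the pregnancy, the instillations and the lactation. Whole lung RNA was labelled with Cy5 and hybridised, 1 dam per array, against Stratagene Universal Reference RNA in Cy3, without dye swap. Each value below is the authors' deposited log2 ratio of lung over reference for 1 dam, and a difference is the mean ratio of a dose group minus that of the controls.

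In the embryo, Hox genes are switched on in the order in which they lie on the chromosome, and their combination gives each level of the body axis its identity. Genes with the same number in different clusters are paralogs, descended from one ancestral gene. The lung buds from the foregut at an anterior level, and its mesenchyme keeps part of this positional expression in the adult. Hoxa5 and Hoxb5 are the members best known there, and loss of Hoxa5 disturbs airway and alveolar development. Hox proteins bind DNA through the homeodomain, usually with Pbx and Meis partners, and Trithorax and Polycomb complexes hold the clusters active or silent.

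The homeobox is so alike between paralogs that a probe lying in it can capture RNA of more than 1 gene. Below, 3 probes are printed from the array's own annotation, 5′ to 3′. Capitals mark the longest run that each shares with a probe of another Hox gene.
Hoxd10: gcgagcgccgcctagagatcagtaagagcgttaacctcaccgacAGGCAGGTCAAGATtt
Hoxc12: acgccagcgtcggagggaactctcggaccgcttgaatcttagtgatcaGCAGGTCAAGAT
Hoxb13: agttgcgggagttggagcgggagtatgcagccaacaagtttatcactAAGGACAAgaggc
The Hoxb3 and Hoxa9 probes, which are not printed, shared 22 of their 60 bases. Their values are therefore uncertain as to gene, and the annotation lists a Hoxd3 accession beside that of Hoxb3 for the same probe. Hoxd10 shared 14 bases with Hoxa9, Hoxc12 shared 12 with Hoxd10, and Hoxb13 shared 8 with a second probe of Hoxa13. Over all 38 probes used, the longest shared run was between 7 and 22 bases, with a median of 9. Runs were sought only among the Hox probes of the array and not in Hox transcripts. A short run therefore does not show that a probe captures 1 gene alone.

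Most Hox genes with a lung signal on every array belonged to the Hoxa and Hoxb clusters, with 8 and 7 such genes against 3 in Hoxc and 1 in Hoxd. The scanner software marks a spot as well above background by a test against the local background, and this mark was counted over the 20 arrays for the Cy5 channel, which holds the lung RNA. On all 20 arrays it was set for 19 of 38 Hox genes (50%), against 61.4% of all genes. It was set on 1 to 19 arrays for 14 genes and on none for 5. A count of arrays says whether a probe exceeded background, and the brightness of different probes was not compared.

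In the Hoxa cluster, on chromosome 6, 8 of 11 genes were marked on all 20 arrays, among them Hoxa2 to Hoxa7 and Hoxa9. The probes from Hoxa2 to Hoxa9 covered an unbroken run of the cluster, from chr6:52125851-52125910 to the Hoxa9 probe at chr6:52187639-52187698 on the mm7 build given in the files, both on the minus strand. Hoxa11, a gene of the limb and the reproductive tract, was marked on 17 arrays. Hoxa10, its neighbour, was marked on 5, and Hoxa13, which patterns the distal limb and the hindgut, on 2.

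In the Hoxb cluster, on chromosome 11, 7 of 10 genes were marked on all 20 arrays: Hoxb2 to Hoxb7 and Hoxb9. The run from the Hoxb2 probe at chr11:96462847-96462906 to the Hoxb7 probe at chr11:96398936-96398995 was unbroken. Hoxb1, a hindbrain gene at one end of the cluster, was marked on no array, and Hoxb8, between Hoxb7 and Hoxb9, on 2. Hoxb13, a gene of the tail end and the prostate that lies apart from the rest at chr11:96304167-96304226, was marked on 18 arrays. Its lung signal was dim, with a median of 111.5 intensity units over a local background of 79.8.

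The Hoxc cluster, on chromosome 15, had 3 of 8 genes marked on all 20 arrays, namely Hoxc4, Hoxc6 and Hoxc9. Hoxc10 was marked on 14, Hoxc5 on 8, Hoxc13 on 4, Hoxc12 on 1 and Hoxc8 on none. Hoxc5 and Hoxc8 thus lay between neighbours that were marked on every array. In the Hoxd cluster, on chromosome 2, only Hoxd4 of 9 genes was marked on all 20 arrays. Hoxd9 followed with 17, Hoxd10 with 8, Hoxd8 with 6, Hoxd12 with 3 and Hoxd3 with 2. Hoxd1, Hoxd11 and Hoxd13, the last a gene of digit formation, were marked on none.

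By paralog group, 5 of 8 genes of groups 1 to 3 and 11 of 15 genes of groups 4 to 8 were marked on all 20 arrays. Of the posterior groups 9 to 13, 3 of 15 were: Hoxa9, Hoxb9 and Hoxc9. Another 10 of these 15 were marked on some arrays. The reference RNA, a pool of cell lines, had 26 Hox genes marked on all 20 arrays in Cy3, including Hoxa10, Hoxa11, Hoxb13, Hoxc10, Hoxc12, Hoxc13, Hoxd8 and Hoxd9. For those 8 genes the probe gave a signal in the reference, though not surely of its own gene alone. The lung fell short of the mark on at least 2 arrays for each. Local background differed between the channels, for Hoxc12 81 intensity units in Cy5 against 18 in Cy3. The marks in lung and reference are therefore not on one scale. The probes used for Hoxb1, Hoxd1 and Hoxd13 were marked in neither RNA on any array, so no statement on lung can be made from them. A second Hoxd13 probe was marked in lung on 1 array.

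**Figure D1:**
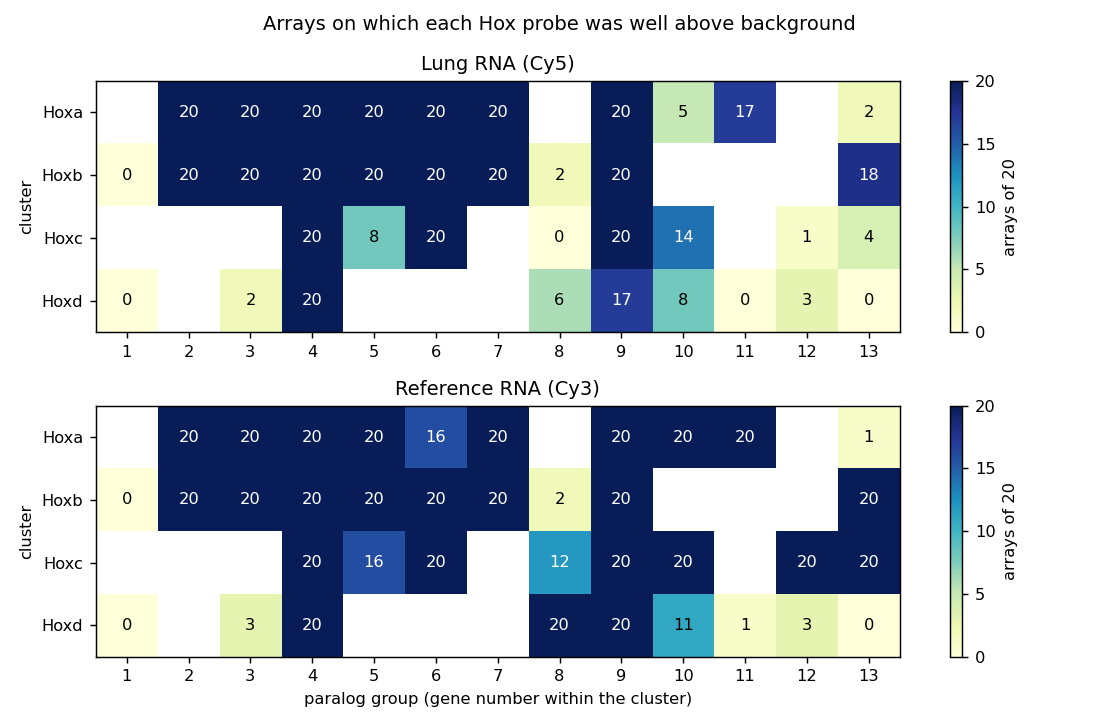
Number of arrays, of 20, on which the probe of each Hox gene was well above background, by cluster (rows) and paralog number (columns), for lung RNA (top) and reference RNA (bottom); empty cells have no gene, have no probe or are not shown. Lung counts of 20 fill Hoxa2 to Hoxa7 and Hoxb2 to Hoxb7, and Hoxd4 is the only such cell in the Hoxd row.

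The number of Hox genes marked per dam ran from 19 to 30. Controls had 22 to 28, low dams 23 to 29, medium dams 19 to 27 and high dams 22 to 30. The lowest counts, 20 and 19, belonged to medium dams 49 and 50, whose slide held no other group and whose arrays had the lowest share of all probes marked, 64% and 65.6% against a highest share of 78.3%. Across the 4 groups that share was 72% ± 3.76 in controls, 73% ± 2.34 at the low, 69.7% ± 4.72 at the medium and 73.4% ± 3.39 at the high dose (SD, n = 5).

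Against the reference, the 19 genes marked on all arrays divided into groups. The log2 ratio was above 0 in all 20 dams for 6 of them (31.6%, against 36.6% of all genes marked on every array). It was below 0 in all 20 dams for 8 (42.1% against 39.4%) and took both signs in 5. The reference is a fixed yardstick, not a control tissue, and a ratio gives no level of one gene against another.

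The genes above the reference in every dam were Hoxa2 to Hoxa5, Hoxb2 and Hoxb5. For Hoxa5, the lung development gene, the lowest ratio was 1.21, the median 1.93 and the highest 2.46. Hoxb5, its paralog and a regulator of airway branching, ranged from 1.25 to 1.86 with a median of 1.71. Hoxa4 ranged from 0.94 to 1.42 and Hoxb2, a hindbrain and neural crest gene, from 0.61 to 1.11. Hoxa2, which specifies the second pharyngeal arch, ranged from 0.36 to 1.12, and Hoxa3, needed for the thymus and parathyroid, from 0.19 to 0.64.

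The 8 genes below the reference in every dam included Hoxa9, Hoxb3, Hoxb7, Hoxb9, Hoxc6, Hoxc9 and Hoxd4. Hoxc9, a thoracic identity gene, had the lowest ratio at -4.51, a median of -4.18 and a highest value of -3.89, and Hoxc6 ran from -3.5 to -2.93. Hoxa9, a gene known for its role in blood stem cells and leukaemia, ran from -1.81 to -1.39. All 3 posterior genes detected in every lung were thus lower in lung than in the reference. With background subtraction by the normexp method, refitted without the lowest spot, the median ratio was 2.1 for Hoxa5, 1.86 for Hoxb5, -4.02 for Hoxc9 and -3.07 for Hoxc6. Of the 14 genes on one side of the reference in every dam, 13 stayed there in every dam after that correction, and Hoxb3 reached 0.09.

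**Figure D2:**
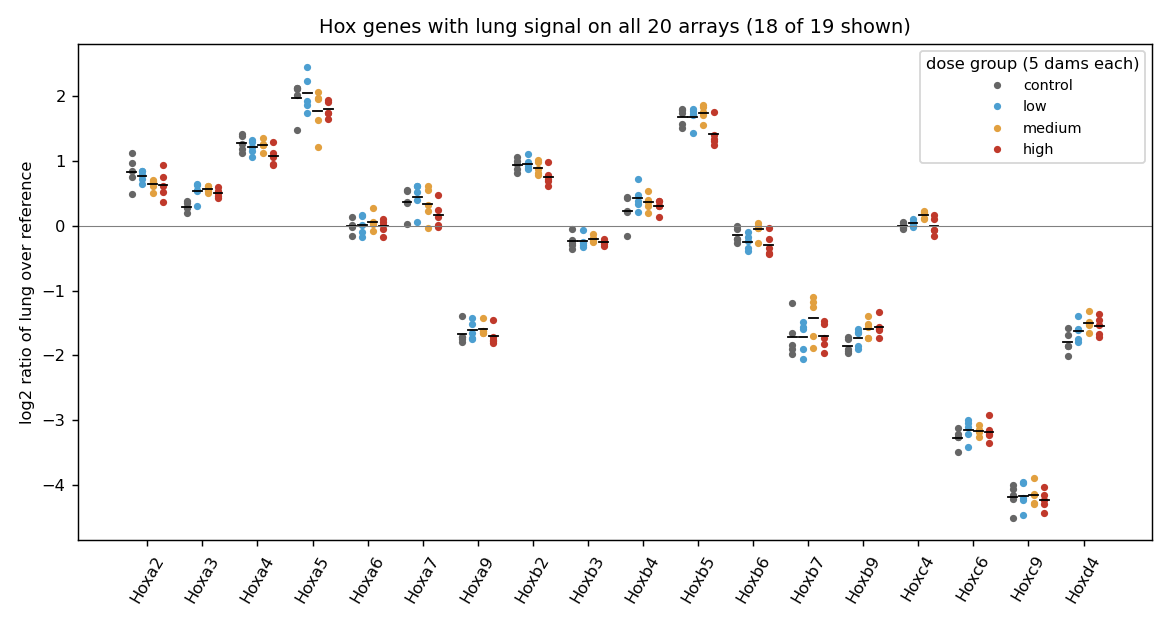
Deposited log2 ratio of lung over reference for Hox genes marked on all 20 arrays, 18 of the 19 such genes being shown; each point is 1 dam, coloured by dose group, and short bars are group means. Hoxa5 and Hoxb5 lie between 1.21 and 2.46 and Hoxc9 between -4.51 and -3.89 in every group.

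Dams of 1 group differed in Hox ratio about as they did for other genes. The SD among the 5 controls had a median of 0.13 over the 25 Hox genes tested and of 0.11 over all 19907 genes tested. Among controls, Hoxc4 varied least (SD 0.05), and Hoxb7 (0.31) and Hoxa5 (0.28) varied most. The mean ratio over the 19 genes marked everywhere was -0.419 ± 0.038 in control, -0.37 ± 0.065 in low, -0.351 ± 0.046 in medium and -0.451 ± 0.071 in high dams (SD, n = 5). The ranges overlapped between all groups: controls lay from -0.47 to -0.368 and the high dose from -0.509 to -0.335.

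The dose comparisons ask whether the particles given during pregnancy left a difference in lung RNA after weaning. A gene was tested if any 1 group had its lung signal marked on 3 or more of its 5 arrays, which 25 of 38 Hox genes met. Hoxc5 and Hoxd10, 2 of the 25, met it through exposed groups alone, being marked on under 3 control arrays. One limma model was fitted to all genes, and a gene was called at a Benjamini-Hochberg adjusted p under 0.05 over all 19907 genes. The 3 dose comparisons share the same 5 controls. Controls always held the same array position on a slide, as did the low and high dams, so for these groups position and dose cannot be told apart. In whole lung, fewer cells of a type and less RNA per cell cannot be told apart.

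No Hox gene passed the test at any single dose in the model without a slide term, and differences of the tested genes were small, at most 0.29 on the log2 scale. With the slide as a block, Hoxa3 and Hoxd10 passed at the high dose (adjusted p = 0.0306 and 0.0322 by limma). There 619 genes were called in all, against 205 without the block. In the high group 0 of 25 Hox genes were called, where 1.03% of all genes were, and the smallest adjusted p by limma was 0.0519, for Hoxd10. At the medium dose 0 of 25 were called, against 0.00502% of all genes, with a smallest adjusted p of 0.12. At the low dose 0 of 25 were called, against 0.00502%, with a smallest adjusted p of 0.52. In a trend over the 4 ordered groups, 1 of 25 was called, against 1.35% of all genes: Hoxd10 rose by 0.07 ± 0.02 (SE) per dose step, adjusted p = 0.0487 by limma.

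At an unadjusted p under 0.05 the Hox genes passed more often than genes at large at both upper doses. In the high group 10 of 25 passed (40%, against 16.5% of all genes), 7 of them higher than control, where 7.68% of all genes were, and 3 lower, where 8.86% were. In the medium group 10 of 25 passed (40%, against 14.0%), all of them higher, where all genes divided into 7.61% higher and 6.44% lower. For 5 of these 10, namely Hoxb13, Hoxc4, Hoxc10, Hoxd4 and Hoxd10, the lung channel alone was lower than control at the medium dose. Among low dams 4 of 25 passed (16%, against 7.48%), all higher, where all genes divided into 3.44% higher and 4.04% lower. For the trend 12 of 25 passed (against 17.0%), 8 higher (against 8.21%) and 4 lower (against 8.77%). These counts include Hoxd10 at every dose and Hoxc5 at the medium dose, which had entered the test through exposed groups alone.

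The median Hox difference was -0.000719 at the high dose (12 genes above and 13 below 0), 0.103 at the medium dose (19 and 6) and 0.0641 at the low dose (20 and 5). Over all genes the medians were -0.00905, 0.00705 and -0.000259. In absolute size the median Hox difference was 0.184 at the high, 0.162 at the medium and 0.0683 at the low dose, against 0.0791, 0.0779 and 0.0621 over all genes.

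**Figure D3:**
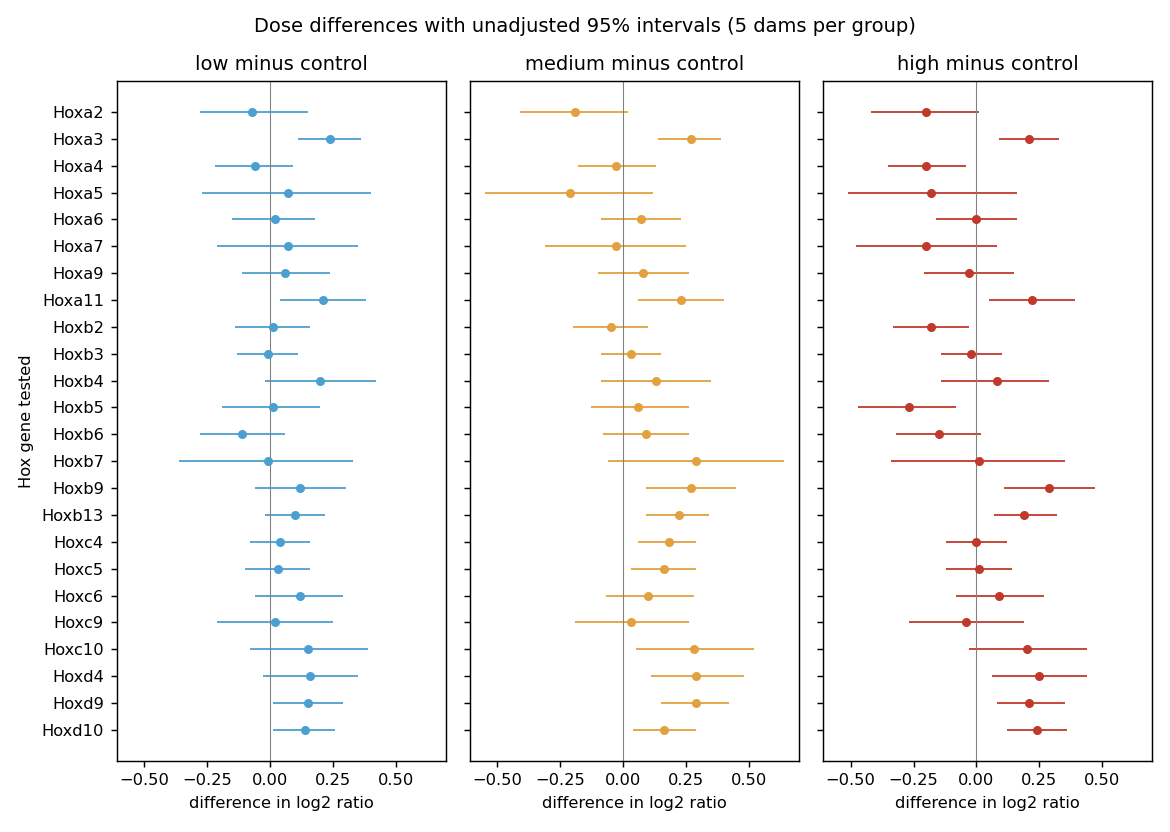
Difference in mean log2 ratio from control for 24 of the 25 Hox genes tested at the low, medium and high dose (5 dams per group); bars are unadjusted 95% confidence intervals of the limma fit. At the high dose Hoxd10, Hoxa3, Hoxb9, Hoxb13, Hoxd9, Hoxd4 and Hoxa11 lie to the right of 0, and Hoxb5, Hoxa4 and Hoxb2 to the left.

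Groups that did not overlap were counted as well. At the high dose all 5 dams lay above all 5 controls for 3 of 25 Hox genes (12%, against 1.49% of all genes): Hoxa3, Hoxb13 and Hoxd10. At the medium dose this held for 4 of 25 (16%, against 1.97%): Hoxa3, Hoxb13, Hoxc4 and Hoxd10. At the low dose it held for Hoxd10 alone (4%, against 0.603%). Hoxd10, counted here at every dose, had entered the test through exposed groups alone. No Hox gene lay wholly below the controls at any dose, where 1.99% of all genes did at the high, 1.25% at the medium and 0.874% at the low dose.

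Hoxd10, a gene of the limb and of lumbar motor neurons at chr2:74537939-74537998 (mm7), was the one member called. Its control ratios were -0.24, -0.17, -0.09, -0.12 and -0.11. The low dams had 0.04, 0.02, -0.05, -0.08 and 0.01, and the medium dams 0.06, 0.02, 0.12, -0.07 and -0.05. The high dams had 0.12, 0.21, 0.23, -0.05 and -0.03. Every exposed dam lay above the highest control, and high dams 64 and 65 lay below the other 3 of their group.

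The Hoxd10 difference was 0.24 ± 0.06 (SE) at the high dose, a ratio of 1.18, with an adjusted p of 0.0519 by limma. It was 0.16 at the medium dose (adjusted p = 0.239) and 0.14 at the low dose (adjusted p = 0.635). Within the 5 slides that held both groups, high minus control was positive on 5 of 5, from 0.07 to 0.38. With the slide as a block, the high-dose difference passed (adjusted p = 0.0322 by limma).

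The Hoxd10 call rests on a dim spot. Its lung signal was well above background on 8 of 20 arrays (1 control, 3 low, 1 medium and 3 high), so it entered the test through the low and high groups. Without that filter the trend was called too (adjusted p = 0.039). The lung signal had a median of 99 intensity units over a local background of 82. The reference signal was marked on 11 of 20. The high-dose difference from control was 0.34 in the lung channel alone and -0.38 in the reference channel, which holds the same RNA on every array. In the medium group these were -0.14 and -0.08, so the lung channel alone lay below control where the deposited ratio lay above it. The part of either channel's background in the ratio was not tested. The trend call was lost in 17 of 20 fits that each left out 1 dam, with adjusted p up to 0.11, and was kept without high dam 64 (0.0298), high dam 65 (0.0369) or medium dam 49 (0.0424).

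Hoxa3 had one of the 3 smallest p-values at each dose. Its control ratios were 0.39, 0.29, 0.35, 0.27 and 0.19. The low dams had 0.54, 0.64, 0.63, 0.56 and 0.3, the medium dams 0.61, 0.53, 0.61, 0.51 and 0.56, and the high dams 0.54, 0.6, 0.46, 0.5 and 0.43. All medium and high dams lay above all controls, and only low dam 36 overlapped them.

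The Hoxa3 difference was 0.21 ± 0.06 at the high dose (adjusted p = 0.0877 by limma), 0.27 ± 0.06 at the medium dose (0.12) and 0.24 ± 0.06 at the low dose (0.52). On the slides that held both groups it was positive on 5 of 5 at the high dose, from 0.11 to 0.32. The high-dose difference passed with the slide as a block (adjusted p = 0.0306 by limma) and without low dam 36 (0.0372).

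At the high dose the lung channel and the second probe of Hoxa3 did not share the rise, and at the lower doses they rose less. In the lung channel alone the high-dose difference was -0.06, and in the reference channel it was -0.3. At the medium dose these were 0.07 and -0.34, and at the low dose 0.1 and -0.28. Another Hoxa3 probe, at chr6:52133666-52133725 against chr6:52133000-52133059 (mm7) for the first and also marked on all 20 arrays, gave -0.01 ± 0.05 at the high dose and 0.08 ± 0.05 at both lower doses. The 2 probes of this gene thus disagreed in size at each dose, and the second showed no rise at the high dose. The channel values are processed signals, each scaled within its array, and need not add up to the deposited ratio. The channel in which the difference of the first probe arose was not tested.

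Hoxb9, a posterior gene of the rib-bearing trunk, showed the largest high-dose difference of the 25 genes tested. Its controls had ratios of -1.75, -1.71, -1.91, -1.96 and -1.94. The low dams had -1.91, -1.64, -1.59, -1.86 and -1.66, the medium dams -1.74, -1.74, -1.56, -1.51 and -1.39, and the high dams -1.33, -1.59, -1.56, -1.74 and -1.61. High dam 64 overlapped the controls and the other 4 lay above them.

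The Hoxb9 difference was 0.29 ± 0.09 at the high dose (adjusted p = 0.107 by limma), 0.27 ± 0.09 at the medium (0.212) and 0.12 ± 0.09 at the low dose (0.791). A second probe of the gene, marked on 14 arrays, gave 0.19 ± 0.07, 0.25 ± 0.07 and 0.18 ± 0.07 at the high, medium and low dose. Both probes were higher than control at each dose, and on the shared slides the main probe's high-dose difference was positive on 5 of 5, from 0.12 to 0.43. In the lung channel alone the high-dose difference of the main probe was -0.14, the same as in the reference channel.

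Hoxb13 and Hoxd9 are posterior members too. Hoxb13 had control ratios of -1.58, -1.42, -1.47, -1.54 and -1.5. The low dams had -1.57, -1.36, -1.31, -1.45 and -1.34, the medium dams -1.35, -1.31, -1.18, -1.42 and -1.16, and the high dams -1.31, -1.38, -1.34, -1.27 and -1.25. The medium group lay above the controls by a margin that vanished at 2 decimals, at -1.42 for both medium dam 49 and control dam 7. The difference was 0.22 ± 0.06 at the medium dose (adjusted p = 0.172 by limma) and 0.19 ± 0.06 at the high dose (0.112). Within slides the high-dose difference ran from 0.04 to 0.28 and was positive on 5 of 5. In the lung channel alone it was -0.14 at the medium and 0.15 at the high dose.

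Hoxd9, a limb gene, had control ratios of -0.89, -0.85, -1.1, -1.07 and -1.06. The low dams had -0.86, -0.88, -0.88, -0.97 and -0.65, the medium dams -0.71, -0.74, -0.65, -0.85 and -0.6, and the high dams -0.75, -0.75, -0.78, -0.9 and -0.71. At least 1 dam of each dose group overlapped the controls. The difference was 0.29 ± 0.07 at the medium dose (adjusted p = 0.139 by limma) and 0.21 ± 0.07 at the high dose (0.113), where it ran from 0.1 to 0.35 within slides. A second probe, marked on 4 arrays, gave 0.18 and 0.24. In the lung channel alone the medium difference was 0.01 and the high one 0.15.

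Hoxa11 had control ratios of -3.12, -3.09, -2.96, -3.1 and -3.2. The low dams had -2.96, -2.67, -2.93, -2.84 and -3.01, the medium dams -2.87, -2.8, -3.15, -2.9 and -2.61, and the high dams -2.75, -2.86, -2.85, -2.95 and -2.97. All 3 dose groups overlapped the controls. The difference was 0.21 ± 0.08 at the low (adjusted p = 0.624 by limma), 0.23 at the medium (0.243) and 0.22 at the high dose (0.187). Within slides the low-dose difference ran from 0.03 to 0.42. The lung signal had a median of 112 intensity units over a local background of 82.

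**Figure D4:**
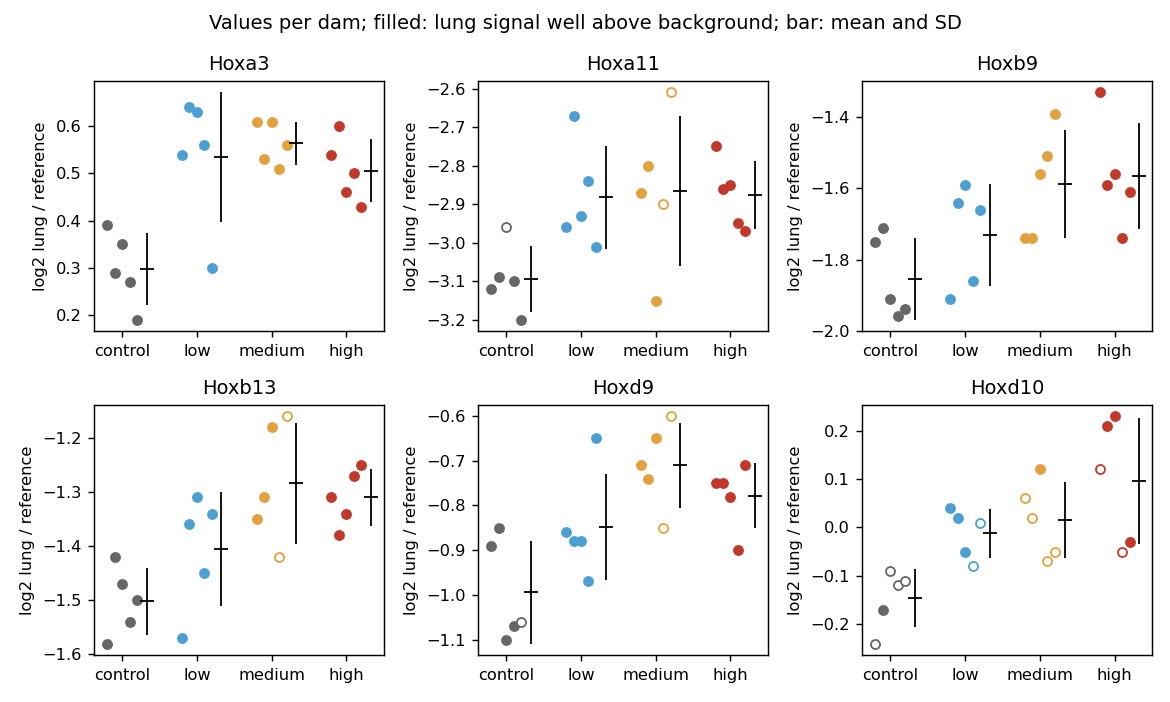
Deposited log2 ratio of lung over reference per dam for the 6 Hox genes with the smallest p-values, by dose group; filled points are arrays whose lung spot was well above background, open points are not, and bars are mean and SD (n = 5). For Hoxd10 the open points outnumber the filled ones, and all exposed dams lie above the highest control at -0.09.

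A further 3 members, all anterior, were lower at the high dose at an unadjusted p under 0.05, and they were singled out after their values were seen. Hoxb5 had control ratios of 1.8, 1.51, 1.57, 1.74 and 1.79, and high-dose ratios of 1.76, 1.34, 1.31, 1.4 and 1.25. High dam 60 lay among the controls and the other 4 below all of them. The difference was -0.27 ± 0.09 (adjusted p = 0.153 by limma), against 0.06 at the medium and 0.01 at the low dose. It was below 0 on 5 of 5 slides, from -0.55 to -0.04. Without high dam 60 it was -0.36 and passed (adjusted p = 0.0364). In the lung channel alone it was -0.15.

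For Hoxa4 the high-dose difference was -0.2 ± 0.07 (adjusted p = 0.18 by limma), and for Hoxb2 it was -0.18 ± 0.07 (0.206). A second Hoxa4 probe gave -0.1 ± 0.06. In the lung channel alone the differences were -0.07 for Hoxa4 and -0.27 for Hoxb2. All 3 genes had a mean ratio above 0, and the 7 members that were higher at the same unadjusted threshold had ratios below or near 0, with Hoxa3 as the exception at 0.3 in controls.

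This pattern was counted over the 25 members tested, which include those it was read from, so the count is no independent test of it. Of the 15 Hox genes whose low-dose mean ratio was below 0, 10 were higher than control at the high dose (66.7%, against 51.8% of such genes overall). Of the 10 with a low-dose mean above 0, 8 were lower (80%, against 58.6%). Some of these differences were very small. Hoxc5 and Hoxb7 were higher by 0.01, and Hoxa6 and Hoxc4, counted as lower, had a difference that rounds to 0. At the medium dose 14 of 15 were higher (93.3% against 55%) and 5 of 10 were lower (50% against 50.1%). The low-dose mean was used because it enters neither comparison.

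The spread of all ratios on an array differed between groups in the same sense. The slope of an array's ratios on the mean of the other arrays averaged 1.012 in controls (0.963 to 1.053), 1.008 at the low, 0.998 at the medium and 0.975 at the high dose (0.938 to 1.029). The ranges overlapped. After scaling between arrays the Hoxd10 trend was 0.07 per dose step, with an adjusted p of 0.0642 by limma. Its group means lay near 0, from -0.15 in controls to 0.09 at the high dose. Scaling could thus hardly move them, and this value does not bear on the spread. The part of this spread in the Hox differences was not tested.

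**Figure D5:**
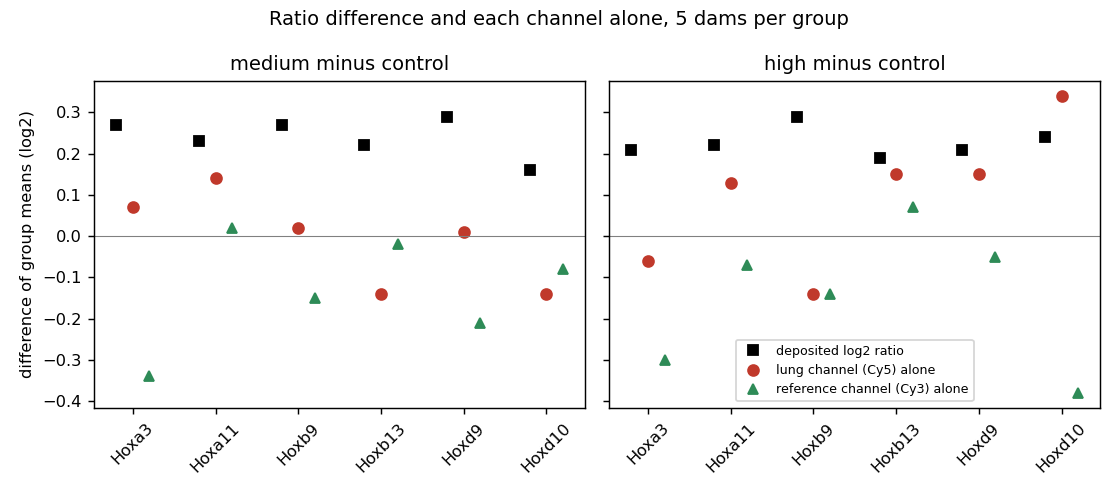
Difference from control in the deposited log2 ratio (squares) and in the processed signal of the lung channel (circles) and the reference channel (triangles), each channel scaled to its array's 75th percentile, for 6 Hox genes at the medium and high dose (5 dams per group, log2 units). For Hoxa3 the lung circle lies near 0 and the reference triangle at -0.3 or below.

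The remaining members showed no difference that passed. For Hoxa5 the interval ran from -0.51 to 0.16 at the high dose, from -0.55 to 0.12 at the medium and from -0.27 to 0.4 at the low dose. For Hoxb7 the high-dose interval ran from -0.34 to 0.35. Hoxb3 was bounded more tightly, between -0.14 and 0.1 at the high dose. Hoxa9, whose probe shares bases with that of Hoxb3, lay between -0.21 and 0.15. Hoxc4, all of whose medium dams lay above the controls, differed by 0.18 ± 0.06 there (adjusted p = 0.209 by limma) and by 0 at the high dose.

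The partners and regulators of Hox genes were counted next, and none of the lists held a called gene at any dose. Few genes were called at large, 1.03% at the high dose and 0.00502% at the medium and at the low dose. In lists this short, no call is therefore not a result about their genes. All 11 Hox cofactors were marked on all 20 arrays. Of these, at the high dose, 1 of 11 had an unadjusted p under 0.05, where 16.5% of all genes did: Pknox2, a homeobox cofactor of the TALE class, differed by -0.25 ± 0.09 (adjusted p = 0.156 by limma). Pbx3 differed by -0.08 ± 0.05. The median over the list was 0.01.

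All 12 Trithorax and MLL genes were marked on every array, and at the high dose 1 was higher and 2 were lower at an unadjusted p under 0.05 (against 7.68% and 8.86% of all genes), with a median difference of 0. Kmt2b, a histone H3 lysine methyltransferase, differed by -0.15 ± 0.04, with all high dams below all controls (adjusted p = 0.0974 by limma). Men1, its complex partner menin, differed by -0.18 ± 0.07 (0.217). Of the 20 Polycomb genes, all marked on every array, Phc1 differed by -0.17 ± 0.05 (0.116) and Pcgf2 by 0.16 ± 0.05 (0.157), with 1 gene higher and 2 lower at an unadjusted p under 0.05 (3 of 20, against 16.5% of all genes) and a list median of -0.04.

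Of 19 retinoic acid genes 17 were tested, and 16 were marked on every array. Stra6, the membrane receptor for vitamin A uptake, differed by 0.31 ± 0.1 at the high dose (adjusted p = 0.116 by limma), and Rxrg, a retinoid X receptor, by -0.38 ± 0.2 (0.343). Only Stra6 had an unadjusted p under 0.05 (1 of 17, against 16.5% of all genes), and the list median was -0.02. Of 14 upstream and neighbouring homeobox and related genes, 7 were tested. Cdx1, Cdx2 and Cdx4, the caudal activators of posterior Hox genes, were marked on no array. Gsx1 differed by 0.18 ± 0.06 at the high dose (adjusted p = 0.127 by limma). At an unadjusted p under 0.05, 3 of the 7 were higher and 1 was lower, against 7.68% and 8.86% of all genes.

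Genes that flank the clusters were on every array, 14 of 14 measured. Cbx1, beside Hoxb, differed by 0.3 ± 0.11 (adjusted p = 0.176 by limma) and Skap1 by -0.15 ± 0.08 (0.371), with a list median of 0.01 at the high dose and Cbx1 alone at an unadjusted p under 0.05 (1 of 14, against 16.5%). Among 18 lung transcription factors tested, 2 had an unadjusted p under 0.05 at the high dose, where 16.5% of all genes did: Tbx4, a mesenchymal factor, differed by -0.31 ± 0.09 (0.106) and Foxf1 by -0.53 ± 0.18 (0.142).

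The tissue label was checked by markers of lung and of tissue that can be taken with it. All 11 epithelial, all 8 endothelial and all 14 mesenchymal markers were marked on every array. The mean ratio of the mesenchymal list, which includes Tbx4 and Foxf1, lay between 1.18 and 1.51 in controls, 1.11 and 1.52 at the low, 1.08 and 1.25 at the medium and 1.11 and 1.3 at the high dose. Its median difference was -0.14 at the high and -0.19 at the medium dose, with 0 of 14 called by limma (against 1.03% and 0.00502% of all genes) and 3 of 14 lower at an unadjusted p under 0.05 at each of these doses (against 8.86% and 6.44%). All 7 cardiac muscle markers were marked on every array and varied widely between dams, from 0.14 to 2.44 in controls and from 0.03 to 2.65 at the medium dose. Their mean was 1.72 in controls, 1.63 at the low, 0.76 at the medium and 1.81 at the high dose. In the medium group, where 10 of 25 Hox genes had an unadjusted p under 0.05 and were higher, 2 of the 7 were lower at that threshold (against 6.44% of all genes), with Actc1 at -0.99 ± 0.34 and Tnnt2 at -1.57 ± 0.71 (adjusted p = 0.236 and 0.336 by limma). Adipose markers (5 tested of 7) ran from 1.08 to 3.04 in controls and from 0.36 to 3.99 at the high dose, with means of 2.02 in controls, 2.16 at the low, 1.26 at the medium and 2.22 at the high dose. Of 9 leukocyte markers, 4 were lower at an unadjusted p under 0.05 at the low dose (against 4.04% of all genes). In medium dams 3 were lower (against 6.44%), namely Itgam, Ptprc and Cd79a, and 1 was higher. The list mean was 1.44 in controls, 1.28 at the low, 1.36 at the medium and 1.43 at the high dose. The part of the share of these tissues and cells in the Hox ratios was not tested.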

How the data were processed

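Lung RNA of 20 dams, 5 per dose group, was measured on two-colour Agilent 4x44K arrays. The authors deposited, per array, a spot table with signal intensity and background for both channels and the software's log10 ratio, per the file headers, and a value table of log2 ratios of lung over reference without background subtraction. The table's normalisation was not given in the sources used here, and its column medians lay between -0.05 and -0.0315. Feature Extraction 9.5.1.1 made 18 of the spot tables and version 10.1.1.1 the other 2, per the file headers. Those 2 were of medium dams 49 and 50, which thus differed from all controls in slide, scan day and software version. The labels give the RNA as total and as polyA for different channels.

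Spots marked as outliers were left out and a gene's probe of highest mean Cy5 signal was used. A value on at least 16 arrays and the background criterion left 19907 genes. limma 3.58.1 (R 4.3.3; lmFit, eBayes) was fitted over all 20 arrays, two-sided, with Benjamini-Hochberg adjustment. The steps were tested on simulated data. Every Hox gene was to be named, but 1 of them, 1 listed gene and 2 probe sequences are not reported here, though counts include them. Those given in every dam had the 3 smallest p-values in a contrast or passed, and from each list the 2 with the smallest high-dose p were named. Members, lists and rules were chosen with earlier results of these data known. The number of arrays limits the precision. Slides 1 to 3 held all groups, slides 4 and 5 all but medium, and slide 6 only 2 medium arrays. The alternatives were other background corrections, channels, filters, probe rules, blocks and the omission of each dam.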

Additional observations from a re-analysis of the deposited data

Results flagged for a closer look

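Single dams stood apart from their group in 6 of the 100 group tests made over the 25 Hox genes and 4 groups, by a gap to the nearest dam that exceeded Dixon's 95% critical value for 5 samples (0.71 of the group's range). Chance alone sets apart about 1 in 20 groups.

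Hoxa9 accounts for 3 of the 6. Its highest control was dam 18 at -1.39, with the next at -1.72, its highest medium dam was dam 47 at -1.42, with the next at -1.63, and its highest high-dose dam was dam 65 at -1.45, with the next at -1.71. Control dam 18 and high dam 65 lay on the same slide. Low dam 36, on that slide too, was the highest of the low group at -1.42, with the next at -1.51. Its gap did not exceed the critical value. Hoxa5 was lowest in control dam 4 at 1.48, with the next control at 2.02. Hoxb5 was lowest in low dam 28 at 1.43, with the next at 1.71. Hoxb6 was lowest in medium dam 49 at -0.26, with the next at -0.04.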

How the results depend on the processing

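No Hox gene was called at the medium or low dose under any of 34 alternatives. At the high dose (0 Hox genes and 205 genes in all in the reported fit), 1 Hox gene was called without a filter on dim probes (381 genes in all) or with the mean of a gene's probes (341), 2 with slide (619) or scan date (418) as a block, and 0 with normexp and loess (14), normexp refitted without the lowest spot (65), the software ratio (10), the Cy5 channel alone (10), only probes marked on all arrays (131) or only the groups compared (21). In the trend (1 Hox gene, 269 genes in all), the counts were 0 and 15 with normexp, 0 and 56 refitted, 0 and 4 with the software ratio, 0 and 13 with Cy5 alone, 0 and 162 after scaling between arrays, 0 and 160 with probes marked on all arrays, 2 and 415 with the mean of probes, 2 and 579 with slide and 2 and 405 with scan date as a block, and 486 in all without a filter. At the medium dose (1 gene in all) 0 were called with normexp, the software ratio or Cy5 alone, 3 without a filter and 2 with the slide block. At the low dose (1) 0 were called with normexp, refitted normexp, the software ratio or Cy5 alone.

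Leaving out 1 dam gave 79 to 247 genes at the high dose, 1 to 9 at the medium dose and 87 to 334 in the trend, with 0 to 1 Hox genes at the high dose and 0 to 3 in the trend. The call of Hoxd9 in the trend passed without low dam 36 or medium dam 49, and that of Hoxb13 without medium dam 49.

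Among Hox differences with an unadjusted p under 0.05, the direction reversed in Cy5 alone for 2 at the high dose, Hoxa3 (-0.06) and Hoxb9 (-0.14), and for 5 at the medium dose: Hoxb13 (-0.14, and -0.11 with the software ratio), Hoxc4 (-0.34), Hoxc10 (-0.19), Hoxd4 (-0.16) and Hoxd10 (-0.14). The cause was not tested. The number of Hox genes marked on all arrays, 19, became 22 at 16 of 20 arrays and 24 with the positive and significant flag. The groups share no replicate number, and the slide was the block used. Dim spots limit several members, such as Hoxd10, whose median lung signal was 99 intensity units over a local background of 82, and Hoxd9, at 107 over 81.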

Other observations

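Other transcripts of the Hox loci had probes that the gene-name rule did not take, or that lay on the strand opposite to the cluster. Both probes of Hoxd3os1, an antisense transcript of the Hoxd cluster, were dim in lung. The first was well above background on 1 of 20 lung arrays and on all 20 in the reference, with log2 ratios from -1.1 to -0.7, and differed from control by 0.16 ± 0.05 at the high, 0.18 ± 0.05 at the medium and 0.13 ± 0.05 at the low dose (SE; adjusted p = 0.0954, 0.158 and 0.668 by limma over all probes). The second was marked on no lung array and on 3 in the reference, and differed by 0.03 ± 0.05 at the high dose.

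A second probe named Hoxb2 lies on the strand opposite to the cluster in the files' coordinates and was marked on all 20 arrays. Its ratios ran from -0.27 to 0.15. It differed from control by 0.02 ± 0.07 at the high dose, where the sense probe differed by -0.18 ± 0.07, and by 0.15 ± 0.07 at the medium dose.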
